A study of Mus musculus with 23 samples.

Results

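The juvenile testis of (B6xPWD)F1 males, hybrids between mouse subspecies, was compared with that of males of the B6 strain, from which the mothers of these hybrids come. The 6 arrays were taken by their titles, 3 of B6xPWD and 3 of B6, out of 23 arrays in the series. Each array was an Affymetrix Mouse Gene 1.0 ST chip, which reads transcripts with many short probes gathered into probe sets, and held RNA pooled from 4 testes of mice aged 14.5 days whose spermatogenic cells had been isolated. The inbred strain B6 derives mostly from the subspecies Mus musculus domesticus, and the inbred strain PWD from Mus musculus musculus. Cross names give the mother first, so males of both groups carried the same B6 X chromosome, while the hybrids had a PWD Y in place of a B6 Y and 1 PWD copy of each autosome. The opposite direction was used for a test of the direction of the cross: PWDxB6 males (3 arrays), with a PWD X and a B6 Y, against PWD males (3 arrays). For some genes the difference from B6xBALB/C males (6 arrays), F1 males of B6 mothers and BALB/C fathers, is also given. No group had a transgene or a treatment. Pools are numbered in the labels without mention of litters, so the p-values cover only pool-to-pool spread, which may be in part technical.

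At this age the leading germ cells are in prophase of meiosis I, when homologous chromosomes pair, are joined by the synaptonemal complex and exchange DNA. The X and Y are largely unpaired at that stage, and in normal spermatocytes their genes are silenced as the cells enter pachytene. Hybrids of these subspecies are a classic model of male sterility: PWDxB6 males arrest in meiosis, and B6xPWD males are known to be less severely affected. The same tissue holds Sertoli cells inside the tubules and Leydig, peritubular, vascular and immune cells around them.

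Values are log2 levels as deposited, and a difference of 1 is a 2-fold change. Of 19661 genes named on the array, 14745 were bright enough to be tested, 474 of them on the X and 8 on the Y. Array medians of the 6 arrays lay between 6.13 and 6.26, and replicate arrays within B6 and within B6xPWD correlated at 0.9877 to 0.993 across genes. Of the 21 spermatid markers on the array 8 fell under the filter on dim signal, whereas 22 of 25 spermatogonial, 27 of 30 pachytene and 29 of 29 Sertoli markers passed it. Differences, standard errors (SE) and adjusted p-values below are from limma over all 23 arrays with Benjamini-Hochberg adjustment across the 14745 genes, and a gene is said to have risen or fallen at an adjusted p under 0.05.

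B6xPWD testes differed from B6 testes at 2503 genes, 17.0% of those tested. Of these 1431 were higher in the hybrid (9.7% of genes tested) and 1072 lower (7.27%). These shares of all genes are the background for the counts of every gene list below. Most changes were modest, with a median of 0.53 among the genes that rose and -0.49 among those that fell, and 78 rose and 26 fell by at least 2-fold. The arrays of the groups did not overlap for 2379 of the called genes, and over all genes tested 31.9% had no overlap. The largest rises and falls named below on autosomes and the X were picked among called genes without overlap. Their separation was thus fixed by the choice. The balance of rises and falls depended on the centring of the arrays: centring on the autosomal median gave 1149 higher and 1332 lower, a share of 46.3% higher against 57.2% as deposited, with a shift of -0.048 in all genes. A fit of only the 6 arrays gave 1622 genes. Leaving out hybrid replicate 2 gave 1211, B6 replicate 1 gave 1485 and B6 replicate 2 gave 1514.

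The strongest autosomal rise was in Vnn1, the gene of the pantetheinase vanin 1, which releases the antioxidant precursor cysteamine. Vnn1 read 9.06, 9.15 and 9.48 on the B6xPWD arrays and 6.92, 6.81 and 6.89 on the B6 arrays. The groups were far apart, and the 3 PWD arrays, at 9.99, 9.82 and 9.6, were higher still. The difference was 2.36 (SE 0.142, adjusted p = 4.94e-10), a 5.13-fold rise. Scn3b, a sodium channel beta subunit, read 6.68, 6.61 and 7.01 against 4.75, 5.26 and 4.86, and Kcnc2, a voltage-gated potassium channel, read 7.04, 7.18 and 7.55 against 5.63, 5.82 and 5.61. In both channel genes every hybrid array lay above every B6 array, as the choice of these genes required. The B6 mean of Scn3b (4.96) was below the log2 level of the dim filter (5.125). Such a gene passed the filter, set on the mean of all 23 arrays, through groups where it is higher. Gask1a rose by 1.50 (SE 0.12, adjusted p = 8.74e-08), and its PWD arrays, at 7.66, 7.87 and 7.77, were above all hybrid arrays. On autosomes and the Y the alleles of the groups differ, and a change of a PWD allele's level and of its match to the probes cannot be told apart there, while on the X both groups carry the B6 allele.

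Another set of large autosomal rises was in genes of metabolism and small RNAs, and here the spread within groups was wider. Mt2, a metallothionein that binds zinc and copper, read 11.71, 11.64 and 10.91 in B6xPWD and 8.64, 9.92 and 9.97 in B6, a difference of 1.91 (SE 0.356, adjusted p = 0.0016). Rsph1, a radial spoke protein of cilia and sperm tails, differed by 1.81 (SE 0.44), Cox7b2, a testis form of a cytochrome c oxidase subunit, by 1.74 (SE 0.362), Ndufb6, a subunit of respiratory complex I, by 1.43 (SE 0.278), and Rps27l, a ribosomal protein paralog, by 1.34 (SE 0.252). In each of Mt2, Rsph1, Cox7b2, Ndufb6 and Rps27l the lowest of the hybrid arrays was replicate 3. Of the small nucleolar RNAs, which guide chemical modification of other RNAs, Snord47 rose by 1.80 (adjusted p = 0.00238) and Snord82 by 1.34 (adjusted p = 0.00367), and for these hybrid replicate 3 was the highest. The predicted zinc finger gene Gm14403 rose by 1.36 (adjusted p = 0.00076), from a B6 mean of 5.07, below the log2 level of the dim filter (5.125).

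The 12 largest autosomal falls included genes of steroid metabolism, matrix and cell adhesion. Cyp1b1, a cytochrome P450 that oxidises steroids and retinoids, read 5.24, 5.29 and 5.64 in B6xPWD and 6.94, 6.91 and 6.93 in B6. The B6 arrays were nearly equal and well above every hybrid array, and the PWD arrays, at 5.29, 5.12 and 5.6, were also below every B6 array. The difference was -1.53 (SE 0.144, adjusted p = 7.17e-07). Olfml3, a secreted matrix protein, fell by 1.40, Pdpn, the membrane glycoprotein podoplanin, by 1.14, Vcam1, an adhesion receptor for leukocytes, by 1.15, and Syne1, a giant protein that ties the nucleus to the cytoskeleton, by 1.16. The probe set of the microRNA gene Mir145a read 5.85, 5.16 and 6.13 against 6.91, 7.52 and 7.6, a fall of 1.63 (SE 0.337, adjusted p = 0.00313). Such a probe set reads the gene's precursor transcript rather than the mature microRNA. Slc16a4, of the monocarboxylate transporter family, fell by 1.15 (adjusted p = 0.000248) and the uncharacterised 2610206C17Rik by 1.20 (adjusted p = 0.00036).

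**Figure D1:**
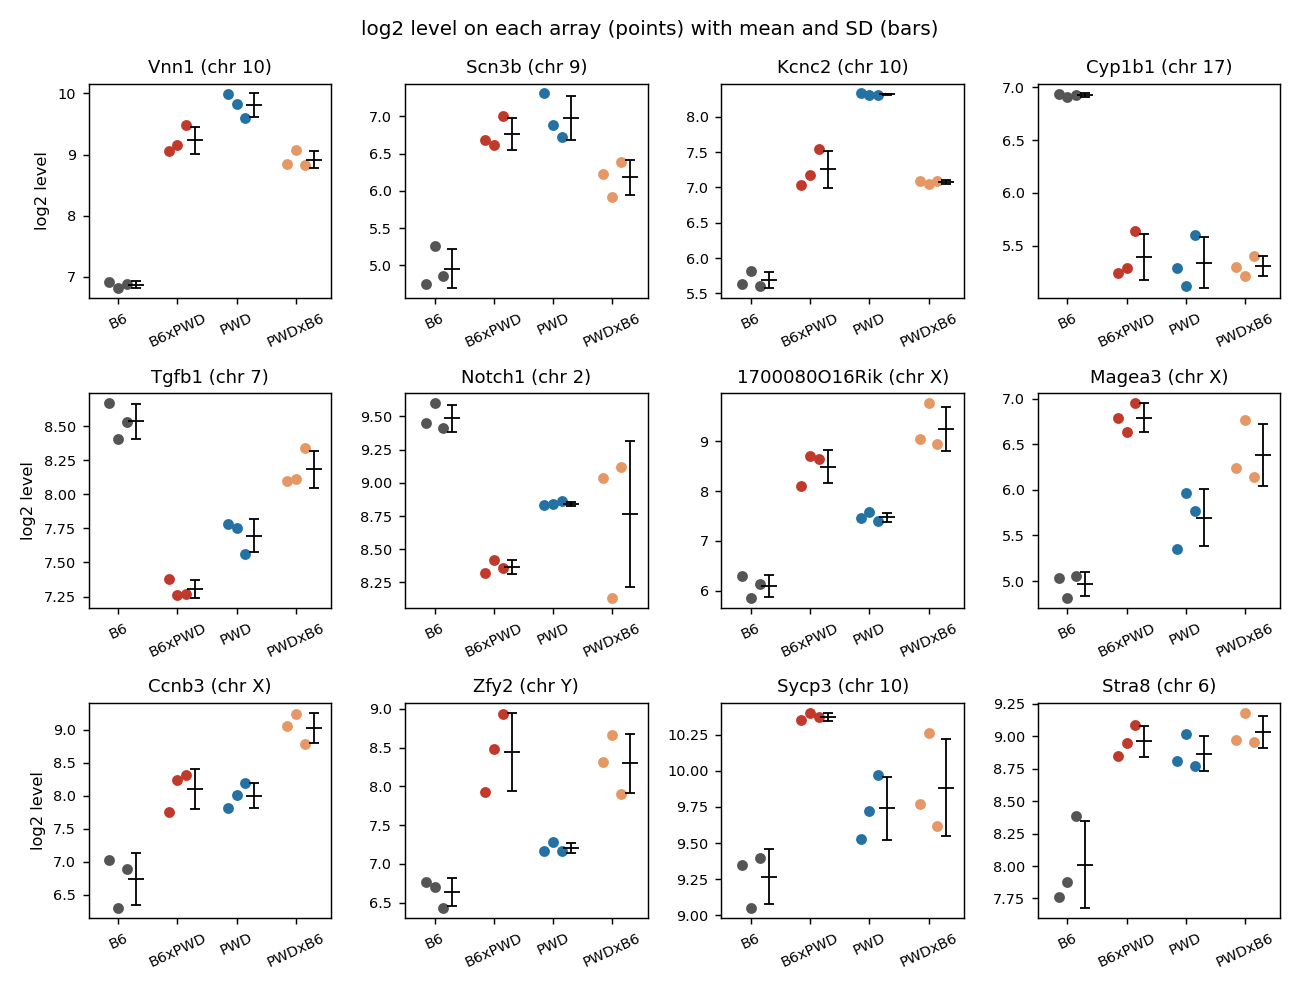
Each point is the log2 level of a gene on 1 array of B6, B6xPWD, PWD or PWDxB6 (3 arrays each), and bars give the group's mean and SD, with a separate vertical scale per gene. Every gene drawn separates the B6xPWD from the B6 arrays, from Vnn1 (9.06 to 9.48 against 6.81 to 6.92) to Cyp1b1 (5.24 to 5.64 against 6.91 to 6.94). For the largest rises and falls among them this was a condition of choice.

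Of 15 tested genes of meiotic entry, 7 rose and 2 fell, with a median difference of 0.36 against -0.01 over all genes tested. Stra8, which germ cells need to begin meiosis in response to retinoic acid, read 8.85, 8.95 and 9.09 in B6xPWD and 7.76, 7.88 and 8.39 in B6. All hybrid arrays were above all B6 arrays, and the difference was 0.96 (SE 0.161, adjusted p = 0.00076). In B6xBALB/C Stra8 was at 8.8 on average, and B6xPWD minus B6xBALB/C was 0.17 (adjusted p = 0.476). Meioc, which stabilises the meiotic programme, rose by 0.69 (adjusted p = 0.00438), Zglp1, a transcription factor, by 0.66 (adjusted p = 0.00794), and Dmc1, the recombinase of meiosis, by 0.36 (adjusted p = 0.0271). Both genes that fell act in retinoic acid signalling. They were Cyp26b1, an enzyme that degrades retinoic acid (-0.74, adjusted p = 0.0103), and Rara, a retinoic acid receptor (-0.65, adjusted p = 0.00491), and both are also expressed by somatic cells of the testis. Without B6 replicate 2, 5 members of the list passed the test in place of 9.

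Of 16 genes of the synaptonemal complex and meiotic cohesin 5 rose and 0 fell by limma, with 0 lower also at an unadjusted p under 0.05, 15 of 16 differences above 0 and a median of 0.34. Sycp3, the main protein of the lateral element that forms along each chromosome axis, read 10.35, 10.4 and 10.37 against 9.35, 9.05 and 9.4. Its hybrid arrays were nearly equal, about 1 unit above the B6 arrays, and the fitted difference was 1.10 (SE 0.218, adjusted p = 0.00224). Against B6xBALB/C, where Sycp3 was at 10.05 on average, the difference of B6xPWD was 0.32 (adjusted p = 0.295). Central element genes rose too: Syce2 by 0.87 (adjusted p = 0.00452) and Tex12 by 0.96 (SE 0.253, adjusted p = 0.013). Tex11, an X-linked gene of synapsis and crossing over, rose by 0.72 (adjusted p = 0.00649), and Rad21l, a meiotic cohesin subunit, by 0.54 (adjusted p = 0.00865). Sycp1, the transverse filament, differed by 0.39 (adjusted p = 0.27) and Hormad1, an axis protein, by 0.63 (adjusted p = 0.0941), with no overlap of their arrays but without passing the test.

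B6 replicate 2 was the lowest of the 6 arrays for these genes. The mean over the 16 members was 8.80, 8.43 and 8.78 on B6 arrays 1 to 3 and 9.02, 9.10 and 9.17 on the B6xPWD arrays. The groups did not overlap, with B6 replicate 2 apart from the other B6 arrays. Without that array, 3 members of the list passed in place of 5, and Rad21l was no longer called (adjusted p = 0.0509).

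Of 26 meiotic recombination genes 9 were higher, 0 lower (1 at an unadjusted p under 0.05 by limma), with a median of 0.34. Rec114, which helps to form the DNA breaks that start recombination, read 6.99, 7.5 and 7.35 in B6xPWD and 6.52, 6.15 and 6.38 in B6, and rose by 0.93 (SE 0.156, adjusted p = 0.00076). It was also higher than in B6xBALB/C, by 0.55 (adjusted p = 0.0135). Hsf2bp, a partner of BRCA2 in strand exchange, rose by 0.68 (adjusted p = 0.0306), Ccnb1ip1, a regulator of crossing over, by 0.61 (adjusted p = 0.0136), and Mei4, another break-forming factor, by 0.41 (adjusted p = 0.0481). Spo11, the enzyme that cuts the DNA, was at 8.08 ± 0.13 in B6xPWD and 8.08 ± 0.31 in B6 (SD, n = 3 each, adjusted p = 0.992 by limma). The count for this list was sensitive to single arrays: 3 without B6 replicate 2, 4 without B6 replicate 1 or B6xPWD replicate 2, and 5 without B6xPWD replicate 3.

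Promoters of 4 of these genes are shown because they rose together and hold a short motif in common. The sequences are from RefSeq (GRCm38.p6), run 5′ to 3′ on the gene's strand from 250 bases before to 50 bases after the annotated start, and capitals mark CACGTG (the E-box, bound by helix-loop-helix factors) and CNCCTCAG (the motif known for STRA8), searched on both strands. Sycp3 lies at chr10:88459337-88459636 on the plus strand, Syce2 at chr8:84872008-84872307 on the plus strand, Tex12 at chr9:50561219-50561518 on the minus strand and Rec114 at chr9:58741510-58741809 on the minus strand.
Sycp3: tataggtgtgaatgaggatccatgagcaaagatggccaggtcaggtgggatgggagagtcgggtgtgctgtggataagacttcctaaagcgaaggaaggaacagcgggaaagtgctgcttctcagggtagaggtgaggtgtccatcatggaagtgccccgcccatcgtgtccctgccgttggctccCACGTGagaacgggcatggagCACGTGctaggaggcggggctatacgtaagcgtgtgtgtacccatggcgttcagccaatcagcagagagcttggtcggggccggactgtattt
Syce2: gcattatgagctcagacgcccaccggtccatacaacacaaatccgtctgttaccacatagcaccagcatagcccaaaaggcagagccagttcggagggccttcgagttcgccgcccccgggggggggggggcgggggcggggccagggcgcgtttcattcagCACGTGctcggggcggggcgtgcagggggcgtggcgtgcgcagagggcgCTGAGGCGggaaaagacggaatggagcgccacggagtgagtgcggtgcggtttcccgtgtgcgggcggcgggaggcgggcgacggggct
Tex12: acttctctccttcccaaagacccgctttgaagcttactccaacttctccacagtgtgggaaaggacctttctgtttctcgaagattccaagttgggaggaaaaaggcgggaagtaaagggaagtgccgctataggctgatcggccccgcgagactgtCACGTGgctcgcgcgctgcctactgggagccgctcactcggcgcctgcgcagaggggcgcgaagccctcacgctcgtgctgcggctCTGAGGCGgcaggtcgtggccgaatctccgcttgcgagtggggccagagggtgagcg
Rec114: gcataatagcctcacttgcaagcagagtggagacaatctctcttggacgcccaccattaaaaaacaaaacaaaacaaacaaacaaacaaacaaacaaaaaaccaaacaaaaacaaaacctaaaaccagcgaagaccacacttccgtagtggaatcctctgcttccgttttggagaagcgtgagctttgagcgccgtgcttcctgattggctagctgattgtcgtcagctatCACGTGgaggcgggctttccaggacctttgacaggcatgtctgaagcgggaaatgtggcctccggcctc

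Sycp3 holds CACGTG with its first base at position -64 and again at -43 relative to the start. For Syce2 the table has 2 overlapping windows: the one shown holds both motifs, and the other, at chr8:84871861-84872160, holds neither. In the windows shown Syce2 holds CACGTG at -88 and Tex12 at -93, and each also has CNCCTCAG on the opposite strand, at -39 and -7. Rec114 holds CACGTG at -19. Of the 16 synaptonemal and cohesin genes 14 had a promoter sequence, and 7 of these (50%) held CACGTG, against 11.2% of the 11641 tested genes with a promoter sequence. A gene with several windows was counted if any of them held the motif. Counted by window, 8 of 16 synaptonemal windows held CACGTG, against 9.5% of the 14698 windows of all tested genes. The share was 38.5% among the meiotic entry genes (5 of 13) and 10% among the recombination genes (2 of 20). CNCCTCAG was found in 4 of 14 (28.6%) synaptonemal promoters and in 10.9% of all, and the motif TGACGTCA, the cAMP response element, in 0 of 14 and in 3.3% of all. Among all genes that rose 14% held CACGTG, and among those that fell 6.93%. The motifs do not overlap one another in the windows shown, and a match is a description of the letters, not of binding.

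Of 22 spermatogonial genes 4 rose and 0 fell (median 0.12): Sohlh2 (0.66, adjusted p = 0.00908) and Sohlh1 (0.60, adjusted p = 0.0204), transcription factors of differentiating spermatogonia, Dazl (0.43, adjusted p = 0.0337), an RNA-binding protein, and Ret (0.39, adjusted p = 0.011), the receptor of the growth factor GDNF. The 4 called are 18.2% of the list, against 17.0% of all genes called in either direction. Without B6xPWD replicate 2, 1 of the 22 passed, and 2 passed without B6 replicate 1 or B6xPWD replicate 1. Of 27 pachytene genes 4 rose and 1 fell, 18.5% of the list against the same 17.0%. Those that rose were Ccnb3, an X-linked meiotic cyclin (1.37, SE 0.175, adjusted p = 4.21e-05), Pdha2, a testis form of pyruvate dehydrogenase (1.00, adjusted p = 0.0499), Cdkn3, a cell cycle phosphatase (0.60, adjusted p = 0.0088), and Spag6, an axoneme protein (0.49, adjusted p = 0.0132), and Mns1, a meiotic structural protein, fell (-0.64, adjusted p = 0.0118). The pachytene count of 5 was 3 without B6 replicate 1 or B6xPWD replicate 2. Of 13 spermatid genes 0 passed the test by limma, and 0 had an unadjusted p under 0.05. Of 17 factors of sex chromosome silencing 3 rose, Scml2 (0.44), Hus1b (0.36) and Rad1 (0.53), 17.6% of the list against 17.0% of all genes. Of these factors 0 were called without B6xPWD replicate 2 and 1 without B6 replicate 1, B6 replicate 2 or B6xPWD replicate 3. Of 23 piRNA pathway genes 2 rose (Pnldc1, 0.52, and Gtsf1, 0.69) and 1 fell (Mov10, -0.45), 13% of the list against 17.0% of all genes, with 0 called without B6 replicate 2 and 1 without B6xPWD replicate 1 or 2.

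**Figure D2:**
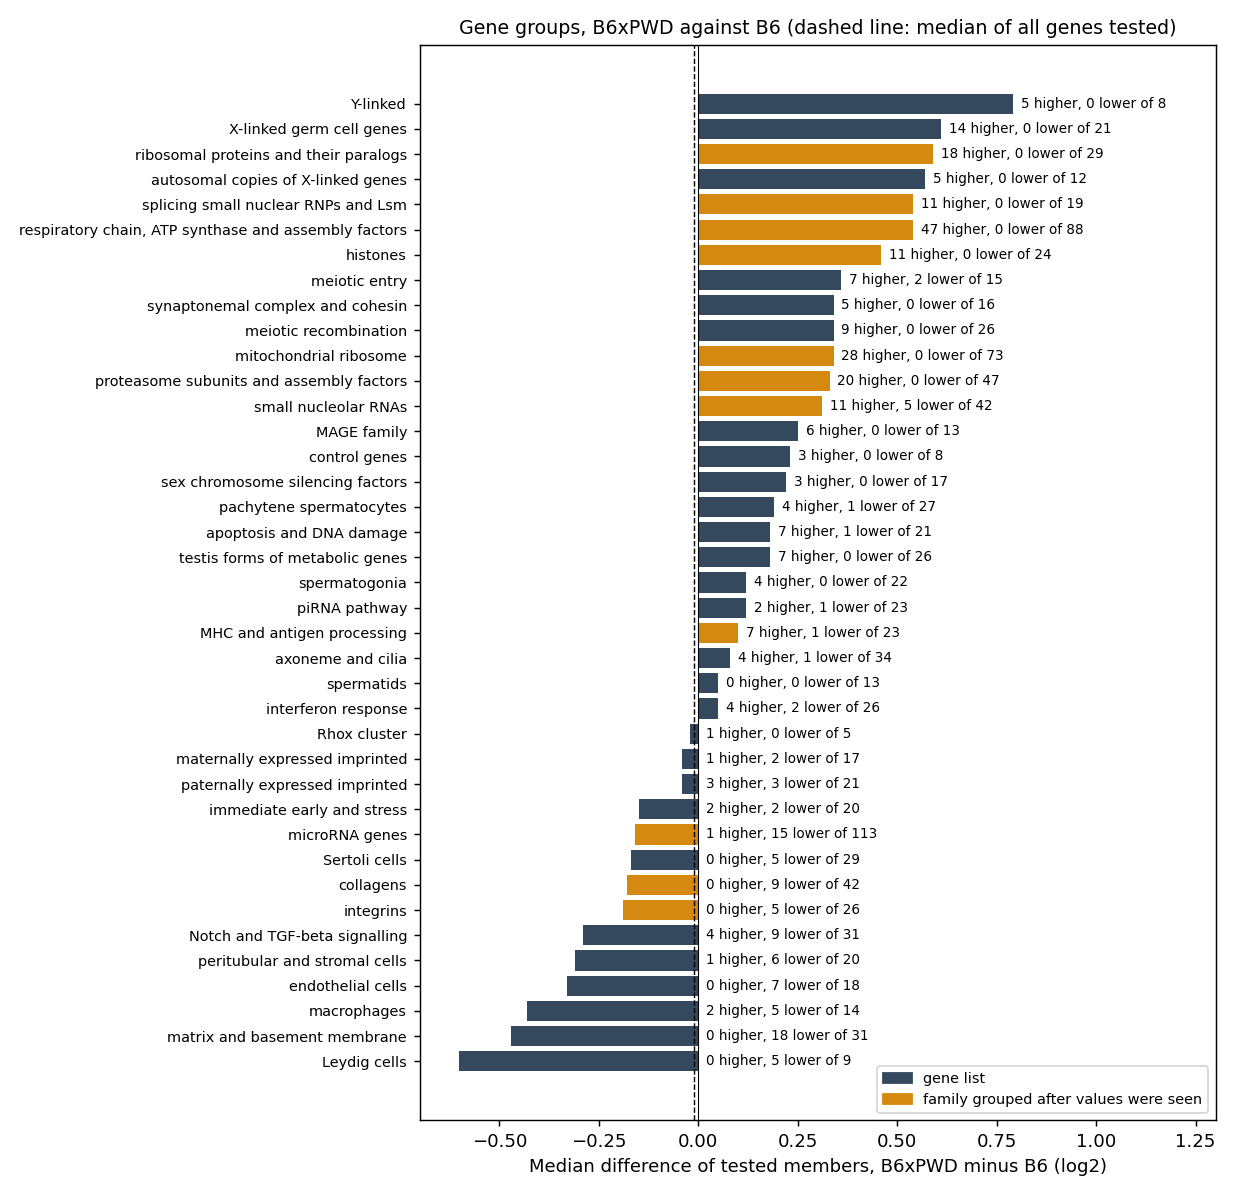
Bars give the median difference in log2 level, B6xPWD minus B6, over the tested members of each gene list (dark) or family grouped by name after values were seen (orange), with counts of members that rose and fell, and the dashed line is the median of all 14745 genes. Y-linked genes, X-linked germ cell genes, ribosomal proteins, autosomal copies of X-linked genes, splicing particles and the respiratory chain lie at the top (medians 0.54 to 0.79), and Leydig cell and matrix genes at the bottom (-0.60 and -0.47).

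On the X, where the groups carry the same alleles, 92 of 474 tested genes rose and 17 fell (19.4% and 3.59%), whereas on single autosomes the share that rose ran from 7.45% to 11.7%. In the list of germ cell genes on this chromosome, 14 of 21 tested were higher and 0 lower (1 at an unadjusted p under 0.05 by limma), with a median of 0.61. The largest was 1700080O16Rik, a testis gene of unnamed function, which read 8.11, 8.71 and 8.64 in B6xPWD and 6.29, 5.85 and 6.14 in B6, a difference of 2.40 (SE 0.225, adjusted p = 7.17e-07). Dcaf8l, a relative of a ubiquitin ligase adaptor, rose by 1.41 (adjusted p = 0.000494), Taf7l, a germ cell subunit of the general transcription factor TFIID, by 0.92 (adjusted p = 0.000191), and Tsga8, a haploid germ cell gene, by 0.81 (adjusted p = 4.19e-05). Ccnb3, described above, read 7.76, 8.24 and 8.32 against 7.03, 6.3 and 6.89. Against B6xBALB/C, B6xPWD was higher by 1.99 for 1700080O16Rik (adjusted p = 8.81e-07) and by 0.94 for Ccnb3 (adjusted p = 0.000454). The B6 mean of Tsga8 (5.13) was near the log2 level of the dim filter (5.125).

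Genes of the MAGE family, cancer-testis antigens that partner ubiquitin ligases, made up a second X-linked group. Of 13 tested 6 rose and 0 fell, with a median of 0.25. Magea3 read 6.79, 6.63 and 6.95 in B6xPWD and 5.03, 4.81 and 5.06 in B6 (difference 1.82, SE 0.239, adjusted p = 5.62e-05). Magea6 differed by 2.02 (SE 0.281) and Magea5 by 1.78 (SE 0.333), and Magea4 read 7.4, 7.35 and 7.38 against 6.5, 6.38 and 6.6. The hybrid arrays of these 4 genes lay above all B6 arrays, which was a condition of choice for Magea3, Magea5 and Magea6. The B6 means of Magea3 (4.97) and Magea6 (4.85) were below the log2 level of the dim filter (5.125). Magea3, Magea5 and Magea6 are close copies whose probes may read one another, so they may not be 3 separate rises, and with the dimmest 50% of genes left out 2 members of the family remained past the test. Of the 5 tested genes of the Rhox homeobox cluster, Rhox13, the germ cell member, rose (0.99, adjusted p = 0.000697), and Rhox8, a Sertoli cell member, was at -0.29 (adjusted p = 0.249).

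Further X-linked rises were in 3830403N18Rik (1.91, adjusted p = 0.000383), Cfap47, a protein of sperm flagella (1.44, adjusted p = 0.000228), and Ndufa1, a complex I subunit (1.42, adjusted p = 0.00101). The B6 mean of 3830403N18Rik (4.32) was below the log2 level of the dim filter (5.125). Ndufa1 read 10.35, 10.23 and 9.28 against 8.39, 8.53 and 8.67, with hybrid replicate 3 nearest to B6. The 5 largest X-linked falls were smaller than these rises: Nrk, a kinase (-0.77), Nudt10, a phosphohydrolase (-0.71), Mamld1, a coactivator needed for male genital development (-0.69), Gpc4, a glypican of the cell surface (-0.67), and Slc38a5, a glutamine transporter of Sertoli cells (-0.60). The call of Nudt10 was lost without B6 replicate 1 or B6xPWD replicate 1, and that of Slc38a5 without B6xPWD replicate 2. The X-linked count of 109 fell to 71 without B6xPWD replicate 2, with 64 higher and 7 lower. The 17 X-linked falls became 31 without B6xPWD replicate 3 (67 higher) and 9 without B6 replicate 1 (69 higher).

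**Figure D3:**
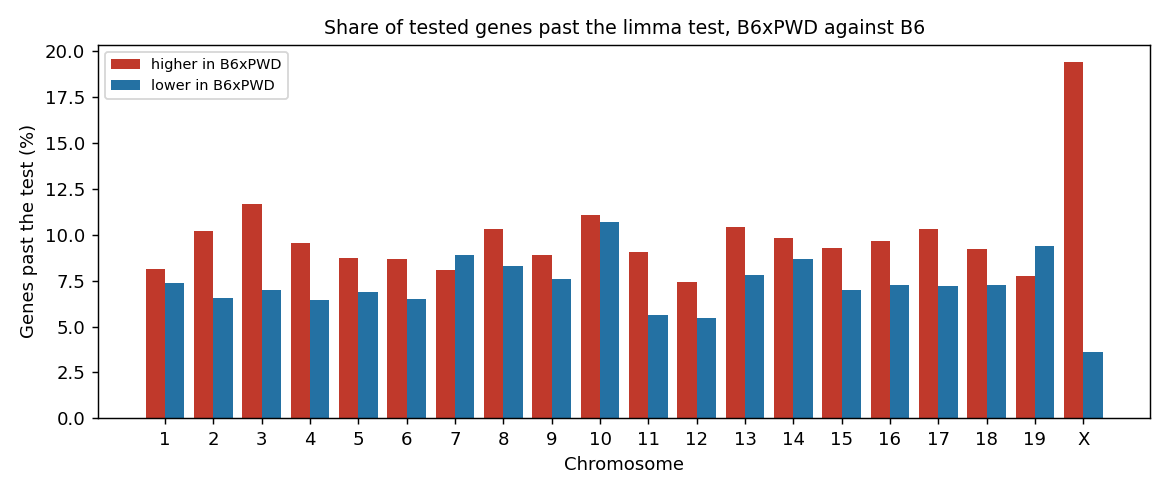
Bars give the percentage of tested genes on each chromosome that were higher (red) or lower (blue) in B6xPWD than in B6 by limma. The X has 19.4% higher and 3.59% lower, and on the autosomes the share higher ranges from 7.45% (chromosome 12) to 11.7% (chromosome 3).

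On the Y, where the hybrid had the PWD chromosome, 5 of 8 tested genes rose and 0 fell by limma, also at an unadjusted p under 0.05, with a median of 0.79. Zfy2, a zinc finger gene active in spermatocytes, read 7.93, 8.48 and 8.93 in B6xPWD and 6.77, 6.7 and 6.43 in B6. Its PWD arrays, with the same Y as the hybrid, read 7.17, 7.28 and 7.17, between the other groups. The difference from B6 was 1.82 (SE 0.193, adjusted p = 4.03e-06), and Zfy1, a near copy whose probes may be shared, gave 1.78 (SE 0.228). B6xPWD minus B6xBALB/C was 1.67 for Zfy2 (adjusted p = 1.17e-06). Usp9y, a deubiquitinase, rose by 1.02 (adjusted p = 0.000895), Uba1y, a ubiquitin-activating enzyme, by 0.85 (adjusted p = 0.00171), and Eif2s3y, a translation initiation factor needed by spermatogonia, by 0.72 (adjusted p = 9.13e-05). Uty (0.24, adjusted p = 0.22), Sry (-0.07, adjusted p = 0.8) and Kdm5d (-0.18, adjusted p = 0.518) did not pass. The Y-linked count was 5 whichever single array of these groups was left out.

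Of 12 autosomal genes that stand in for X-linked ones during meiosis 5 rose and 0 fell, with a median of 0.57. Rps4l and Rpl39l, copies of ribosomal protein genes, rose by 1.02 (adjusted p = 0.00176) and 1.27 (adjusted p = 0.0181), beside Cox7b2, Pdha2 and Rpl10l (0.95, adjusted p = 0.0343). Testis forms of metabolic enzymes, which share some of these genes, had 7 of 26 up and 0 down (26.9% called, against 17.0% of all genes). Among them Got1l1, an aminotransferase relative, read 7.16, 7.76 and 7.56 against 6.6, 6.37 and 6.07 (difference 1.15, SE 0.167), and Slc25a31, the ADP/ATP carrier of male germ cells, rose by 0.82 (adjusted p = 0.00464). The counts were 2 of 12 and 3 of 26 without B6 replicate 1, B6 replicate 2 or B6xPWD replicate 2, and 3 and 4 without B6xPWD replicate 1.

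Families of the housekeeping machinery of energy and protein production were grouped by gene name after their values had been seen, so their counts are descriptions. Of 88 genes of the respiratory chain, ATP synthase and their assembly factors 47 rose and 0 fell, with a median of 0.54 and 79 differences above 0. Ndufa9, in the arm of complex I, read 9.85, 9.95 and 9.81 in B6xPWD and 8.49, 8.94 and 9.12 in B6 (difference 1.02, SE 0.168, adjusted p = 0.000655), Cox7a2, of cytochrome c oxidase, rose by 1.01 (SE 0.184) and Atp5k, of ATP synthase, by 1.13 (SE 0.237). The mean over all 88 was 8.18, 8.35 and 8.41 on the B6 arrays and 8.96, 8.98 and 8.59 on the B6xPWD arrays. Hybrid replicate 3 lay close to the B6 arrays and the other hybrid arrays well above them. The count was 56 without hybrid replicate 3, 28 without hybrid replicate 1, 23 without hybrid replicate 2 and 20 without B6 replicate 1.

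Of 73 mitochondrial ribosome genes 28 rose and 0 fell (median 0.34), led by Mrps18c (1.30, SE 0.232). Of 29 cytosolic ribosomal proteins and paralogs 18 rose and 0 fell (median 0.59), among them Rps3a1 at 10.83, 10.7 and 10.5 against 9.63, 9.17 and 9.52. Of 47 proteasome genes 20 rose and 0 fell (median 0.33), led in size by Psmb2, a core subunit (0.99, SE 0.198), and of 19 small nuclear ribonucleoprotein and Lsm genes 11 rose and 0 fell (median 0.54), such as Snrpd3 (1.02, SE 0.193). The mitochondrial ribosome count was 9 without B6xPWD replicate 2, 12 without B6 replicate 1 and 16 without B6 replicate 2 or B6xPWD replicate 1. The proteasome count was 9 without B6 replicate 2, 10 without hybrid replicate 2 and 12 without B6 replicate 1, the ribosomal protein count was 11 without B6 replicate 1, and that of the splicing particles was 7 without B6xPWD replicate 2. Many of these genes have copies and pseudogenes of nearly the same sequence whose signal the probes may share.

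Histone genes were a further such family, with 11 of 24 higher and 0 lower (median 0.46). H2bc14 read 9.6, 9.58 and 9.58 in B6xPWD and 8.11, 8.5 and 8.51 in B6, a difference of 1.21 (SE 0.167, adjusted p = 9.83e-05), and the linker histone H1f1 read 12.1, 12.08 and 12.2 against 11.25, 11.09 and 11.33. Both were higher on every hybrid array, and the PWD means, 9.64 and 12.28, were at the level of the hybrid. Of 42 small nucleolar RNA genes 11 rose and 5 fell, with Snord53 lowest (-1.09, adjusted p = 0.000147), and the total of 16 was 8 without B6 replicate 1 and 9 without B6xPWD replicate 2 or 3. Of the control genes 3 of 8 rose, the X-linked Hprt by 0.57 (adjusted p = 0.00745), Rplp0 by 0.43 (adjusted p = 0.0291, but 0.26 and 0.191 without B6 replicate 1) and Tbp by 0.45 (adjusted p = 0.0384), of which Tbp lost its call in 7 of 14 alternatives. The control count was 1 without B6 replicate 1, B6xPWD replicate 1 or B6xPWD replicate 2. The 3 called are 37.5% of the control list, against 17.0% of all genes.

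Genes that rose were shorter than genes that fell. The median genomic span in the RefSeq gene table was 14.1 kb for rises, 40.1 kb for falls and 21.8 kb for genes that did not pass. Among the shortest 25% of genes, 13.1% rose and 4.19% fell, and among the longest 25%, 5.25% rose and 11.8% fell. The respiratory chain genes had a median span of 7.45 kb and the matrix genes one of 77.1 kb. The part of gene length, and of what goes with it on these arrays, in the counts of gene groups was not tested.

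Of 9 tested Leydig cell genes, out of 16 listed, 0 rose and 5 fell, with a median of -0.60. Cyp11a1, the enzyme that begins steroid synthesis from cholesterol, read 5.19, 5.63 and 4.63 in the hybrid and 6.08, 6.43 and 6.27 in B6, a fall of 1.11 (SE 0.249, adjusted p = 0.00507). Cyp17a1, which turns progestagens into androgens, was at 5.17 ± 0.28 against 6.20 ± 0.28 (SD, n = 3 each; difference -1.03, adjusted p = 0.0436 by limma), and Hsd3b6 and the lipoprotein receptor Scarb1 fell by 0.88 and 0.60. The summed level of the Leydig list, the sum of its members in linear intensity, ran from 1879 to 2167 in B6xPWD and from 2502 to 3044 in B6. In such bulk samples fewer cells of a type and less RNA per cell cannot be told apart. A difference in how many somatic cells remained after spermatogenic cells were isolated cannot be told apart from these either, here and in the somatic lists below. Signal was dim for the steroid enzymes. The hybrid means of Cyp11a1 (5.15) and Cyp17a1 (5.17) were just above the log2 level of the dim filter (5.125), and that of Hsd3b6 (4.98) was below it. Without B6 replicate 3 or B6xPWD replicate 3, 2 of the 9 passed, and 3 passed without B6 replicate 2.

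Of 18 endothelial genes 7 fell and 0 rose (median -0.33), including Kdr, the main receptor of vascular endothelial growth factor (-0.97, SE 0.239), and Eng, the co-receptor endoglin (-0.76, SE 0.164), with summed levels of 1270 to 1626 against 1671 to 2060. Of 20 peritubular and stromal genes 6 fell and 1 rose (median -0.31). Col1a1, of type I collagen, fell by 0.75 (adjusted p = 0.0149), Myh11, smooth muscle myosin, by 0.58 (adjusted p = 0.0166), and Mgp, a matrix protein, rose by 0.58 (adjusted p = 0.028). The summed levels of the stromal list were 9810 to 11297 in the hybrid and 11930 to 14301 in B6, without overlap. Of 14 macrophage genes 5 fell, among them Mrc1, the mannose receptor (-0.63, adjusted p = 0.00849, but -0.41 and 0.0598 without B6xPWD replicate 1), and Csf1r, the receptor of macrophage growth factor CSF1 (-0.53, adjusted p = 0.0273), while the antigen presentation genes Cd74 (0.84) and H2-Ab1 (0.83) rose. Summed macrophage levels were 960 to 1033 against 1020 to 1186, which overlap. The endothelial count of 7 went to 2 when B6 replicate 2 was left out, to 3 for hybrid replicate 1 and to 4 for hybrid replicate 3. The stromal count of 7 was 1 without B6xPWD replicate 2, 2 without B6 replicate 1, 3 without B6 replicate 2 and 4 without B6xPWD replicate 1. The macrophage count of 7 was 3 without B6xPWD replicate 1 and 4 without B6 replicate 2 or B6xPWD replicate 3.

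Of 29 Sertoli cell genes 5 fell and 0 rose, with a median of -0.17. These are 17.2% of the list, against 17.0% of all genes called in either direction and 7.27% lower. Wt1, a transcription factor that maintains Sertoli cells, read 9.97, 9.95 and 10.05 in B6xPWD and 10.63, 10.68 and 10.63 in B6. Both groups were tight and apart, and the difference was -0.66 (SE 0.148, adjusted p = 0.00523). B6xPWD minus B6xBALB/C was -0.35 for Wt1 (adjusted p = 0.0839). Espn, an actin bundler of Sertoli junctions, fell by 0.76, Trf, transferrin, by 0.56, Gata4, a transcription factor, by 0.45, and Kitl, the ligand through which Sertoli cells support spermatogonia, by 0.72. The count of 5 was 3 without B6 replicate 1, B6 replicate 2, B6xPWD replicate 1 or B6xPWD replicate 2. Summed levels of the Sertoli list were 36964 to 39718 in the hybrid and 38844 to 42036 in B6, which overlap. The part of these lower somatic marker levels in the rises of germ cell genes was not tested.

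**Figure D4:**
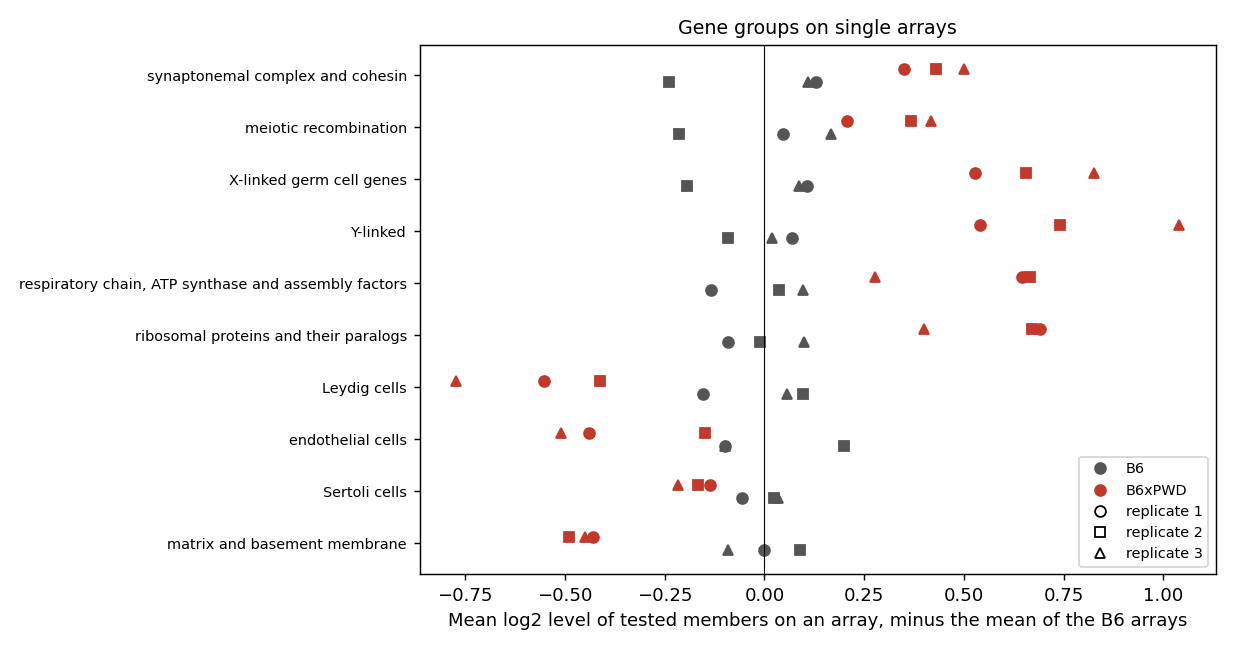
Each point is the mean log2 level of the tested members of a gene group on 1 array, minus the mean of the 3 B6 arrays (grey B6, red B6xPWD, shape by replicate number). The B6xPWD arrays lie to the right of all B6 arrays for the synaptonemal, recombination, X-linked germ cell, Y-linked, respiratory chain and ribosomal groups drawn (synaptonemal genes 9.02 to 9.17 against 8.43 to 8.80) and to the left for Leydig, endothelial, Sertoli and matrix groups (matrix genes 7.92 to 7.98 against 8.32 to 8.50).

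Of 31 tested genes of the extracellular matrix and basement membrane 18 fell and 0 rose, a share of 58.1%, with no difference above 0 and a median of -0.47. Fbn2, a microfibril protein, read 7.46, 7.52 and 7.67 in B6xPWD and 8.73, 8.37 and 8.34 in B6 (difference -0.93, SE 0.145, adjusted p = 0.000384), and Col4a2, of the type IV collagen of basement membranes, read 7.83, 7.84 and 7.85 against 8.39, 8.58 and 8.28. No hybrid array reached the lowest B6 array in either gene. B6xPWD minus B6xBALB/C was -0.37 for Fbn2 (adjusted p = 0.0673) and -0.32 for Col4a2 (adjusted p = 0.0266). Col15a1, another basement membrane collagen, fell by 0.93, Adamts5, a protease of proteoglycans, by 1.10, Lama1, a laminin of the tubule wall, by 0.74, and Sparc, a collagen-binding protein, by 0.57. Over the list the array means were 8.41, 8.50 and 8.32 in B6 and 7.98, 7.92 and 7.96 in the hybrid, and the summed levels were 15172 to 16587 against 11001 to 11638. In families grouped after values were seen, 9 of 42 collagens and 5 of 26 integrins, their receptors, fell and 0 rose. These are 21.4% and 19.2% of those tested, against 17.0% of all genes called in either direction and 7.27% lower. The integrin count was 3 without B6 replicate 1, B6xPWD replicate 1 or B6xPWD replicate 2. The matrix count was 11 without B6 replicate 2 or B6xPWD replicate 2.

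Notch and transforming growth factor beta signalling, which carry messages between Sertoli, germ and stromal cells, had 9 of 31 genes lower and 4 higher, with a median of -0.29. Both ligands with the largest change fell: Tgfb1 read 7.38, 7.26 and 7.27 against 8.67, 8.41 and 8.53 (difference -1.23, SE 0.165, adjusted p = 7.79e-05), and Tgfb3 differed by -1.14 (SE 0.192, adjusted p = 0.00076). Notch1, a receptor, read 8.32, 8.42 and 8.36 against 9.45, 9.6 and 9.41. Within each group these values were close, and the groups were more than 1 unit apart. By contrast Hey1, a transcriptional target of Notch, rose (0.69, SE 0.134, adjusted p = 0.00202), as did its relative Hey2 (0.52, adjusted p = 0.0153), the receptor Tgfbr1 (0.47, adjusted p = 0.0103) and the signal mediator Smad3 (0.38, adjusted p = 0.0283). With autosomal centring the list had 13 lower and 3 higher, and with quantile normalization 12 lower and 4 higher. The share called as deposited was 41.9% of the list, against 17.0% of all genes.

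Of 21 genes of DNA damage and apoptosis 7 rose and 1 fell (median 0.18). Pmaip1, the pro-apoptotic BH3 protein NOXA and a p53 target, read 7.65, 7.89 and 7.86 in B6xPWD and 6.75, 6.85 and 6.94 in B6, a difference of 0.95 (SE 0.125, adjusted p = 5.62e-05). Mdm2, the ubiquitin ligase that restrains p53, read 9.41, 9.48 and 9.4 against 8.76, 8.82 and 8.83. Every hybrid array was above every B6 array in both. Gadd45a rose by 0.53 (adjusted p = 0.00952) and Ccng1 by 0.46 (adjusted p = 0.0122), both p53 targets, and Bak1, a pore-forming killer protein, fell (-0.50, adjusted p = 0.0241). The 8 called are 38.1% of the list, against 17.0% of all genes. The count of 8 was 3 without B6 replicate 2 or B6xPWD replicate 2, 4 without B6 replicate 1 and 5 without B6xPWD replicate 3. Immediate early and stress genes, which respond to handling of tissue, showed 2 of 20 higher (Ier3, 1.22, and Dnajb1, 0.46) and 2 lower (Myc, -0.43, and Egr3, -0.49). The share called was 20.0% of that list, against 17.0% of all genes. From the list 0 passed without B6xPWD replicate 2, 1 without B6 replicate 2 and 2 without B6 replicate 1, B6 replicate 3 or B6xPWD replicate 3.

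Imprinted genes, read from 1 parental copy, went in both directions. Of 21 paternally expressed genes 3 rose and 3 fell (median -0.04), and these are read in the hybrid from a PWD copy. The share called was 28.6% of that list, against 17.0% of all genes. Nnat, a membrane protein gene, read 7.43, 7.28 and 7.28 in B6xPWD, 6.13, 6.31 and 6.25 in B6 and 7.49 on average in PWD. The hybrid was thus near PWD and above B6 on every array (difference 1.10, SE 0.125, adjusted p = 1.06e-05). Peg10, a gene derived from a retrotransposon, fell by 0.99 (SE 0.19, adjusted p = 0.00187), and Igf2, a fetal growth factor, by 0.57 (adjusted p = 0.0168). Of 17 maternally expressed genes, read in both groups from a B6 copy, 1 rose and 2 fell: Cdkn1c, an inhibitor of the cell cycle (0.76, adjusted p = 0.00304), and Ppp1r9a (-0.50, adjusted p = 0.029) and Osbpl5 (-0.44, adjusted p = 0.0349). These 3 are 17.6% of the maternally expressed list, against 17.0% of all genes. The count of 3 was 1 without B6 replicate 2, B6xPWD replicate 1 or B6xPWD replicate 2, and 5 without B6xPWD replicate 3.

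Whether the hybrid's difference from its maternal strain depends on the direction of the cross was asked by subtracting PWDxB6 minus PWD from B6xPWD minus B6, a test in which no array enters both differences. The differences diverged at 1328 genes (9.01% of those tested), 658 in the positive direction and 670 in the negative (4.46% and 4.54%). The PWDxB6 direction itself had 340 genes past the test (2.31%), 196 higher (1.33%) and 144 lower (0.977%). Of 474 X-linked genes 28 diverged (5.91%), and of the autosomal genes 9.11%. Each hybrid holds 1 copy of each autosome, and its Y, from the other strain. On autosomes and the Y a difference between the strains and an effect of the direction of the cross therefore cannot be told apart in this test. Leaving out PWDxB6 replicate 3 gave 788 diverging genes, B6xPWD replicate 2 gave 820, PWD replicate 2 gave 823 and PWDxB6 replicate 1 gave 856.

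In the widest divergences the differences had opposite signs. Trim12a, an antiviral TRIM family gene with close copies, read 7.35, 7.2 and 8.06 in B6xPWD and 8.62, 8.44 and 8.65 in B6, and 7.17, 7.63 and 7.58 in PWDxB6 and 4.31, 3.87 and 4.23 in PWD. Both hybrids lay between the strains, nearer to B6, and the differences of -1.04 and 3.32 were 4.36 apart (direction difference -4.36, SE 0.259, adjusted p = 3.57e-10). The PWD mean of Trim12a (4.14) was below the log2 level of the dim filter (5.125). For Vnn1 the direction difference was 3.25 (SE 0.201, adjusted p = 4.37e-10), for Kcnc2 2.81, for Scn3b 2.61 and for Gask1a 2.51, each with PWD the highest group. Lgals3bp, a secreted glycoprotein induced by interferon, read 6.86, 6.97 and 7.33 in B6xPWD, 6.32, 6.58 and 6.48 in B6, 6.95, 6.94 and 6.78 in PWDxB6 and 9.1, 9.08 and 9.15 in PWD. Here both hybrids lay close to B6 and far below PWD (direction difference 2.82, SE 0.179). Negative differences were also large for 2610524H06Rik (-3.12), Olfml3 (-2.78), 2610206C17Rik (-2.62) and Slc16a3, a lactate exporter (-2.47).

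Some X-linked and Y-linked rises passed this test and others did not. Of the 8 largest X-linked rises 1700080O16Rik was 1.77 higher in PWDxB6 than in PWD, Dcaf8l 1.00 higher and Cfap47 0.87 higher, and their direction differences did not pass (adjusted p = 0.245, 0.483 and 0.27). Magea5 was at -0.02 in the other direction, Magea6 at 0.52 and 3830403N18Rik at 0.35, and these rises were larger in B6xPWD by 1.80, 1.50 and 1.56 (adjusted p = 0.019, 0.0206 and 0.023). Zfy2 and Zfy1 rose in both directions, by 1.09 and 1.11 in PWDxB6 (adjusted p = 0.00175 and 0.00671), whereas Eif2s3y and Uba1y, at 0.12 and 0.00 there, diverged (adjusted p = 0.00932 and 0.0213). For the respiratory chain family the other direction had 1 of 88 genes higher, a median of 0.07, and 14 genes that diverged in the positive direction and 1 in the negative. For the synaptonemal list it had 0 of 16 called and a median of 0.03, but 0 of its members diverged by limma (5 at an unadjusted p under 0.05), and Sycp3 was at an adjusted p of 0.0527. For Stra8 and Rec114 the difference from the maternal strain was larger in B6xPWD (adjusted p = 0.0324 and 0.00356), at 0.17 and -0.16 in the other direction. The hybrids themselves were level for Stra8, with means of 8.96 in B6xPWD and 9.03 in PWDxB6, beside 8.87 in PWD and 8.01 in B6. Rec114 means were 7.28 in B6xPWD, 6.68 in PWDxB6, 6.84 in PWD and 6.35 in B6.

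**Figure D5:**
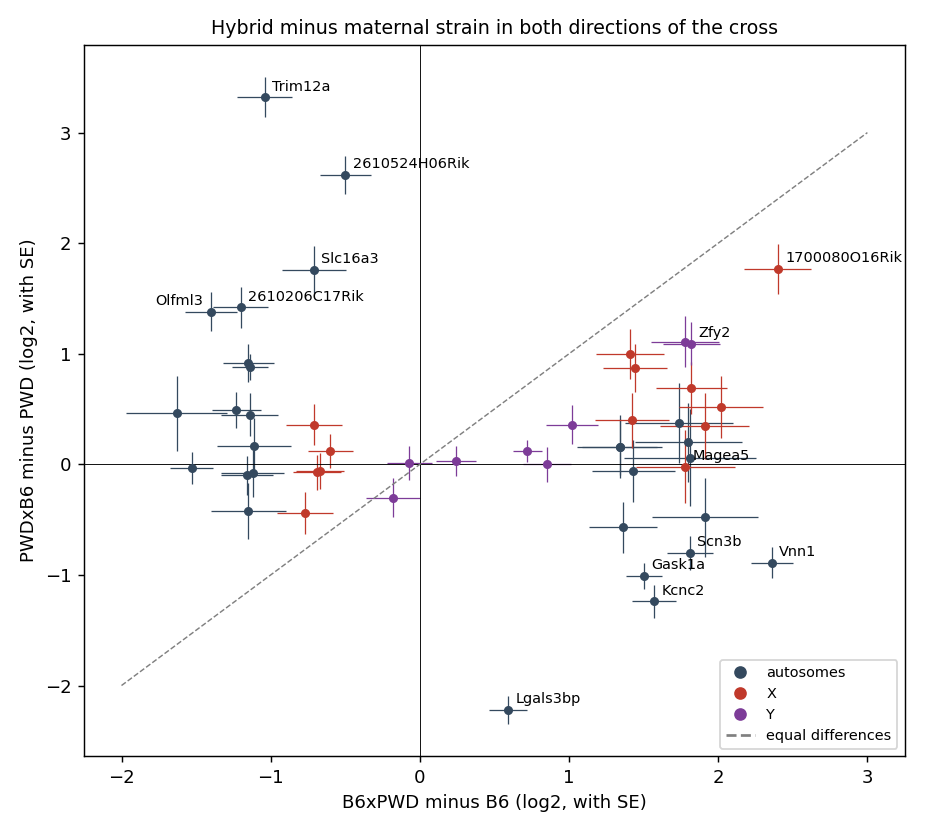
Points are named genes, placed by B6xPWD minus B6 (horizontal) and PWDxB6 minus PWD (vertical), both in log2 units with standard errors, coloured by chromosome, and the dashed line marks equal differences. Trim12a (-1.04 and 3.32) and Vnn1 (2.36 and -0.89) lie far from the line, while the X-linked 1700080O16Rik (2.40 and 1.77) lies near it.

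Genes of the interferon response and of antigen processing were counted in both directions of the cross. In B6xPWD against B6, 4 of 26 interferon genes rose and 2 fell (median 0.05), whereas in PWDxB6 against PWD 0 rose and 16 fell (median -0.59), and 14 of the 26 diverged, all in the positive direction. The share called in B6xPWD was 23.1% of the list, against 17.0% of all genes. In PWDxB6 against PWD 0.977% of all genes were lower, and 4.46% of all genes diverged in the positive direction. Bst2, the antiviral protein tetherin, read 7.88, 7.79 and 7.29 in B6xPWD and 6.9, 7.02 and 6.97 in B6 (difference 0.69, adjusted p = 0.00344), and differed by -0.75 in the other direction. Mx2, an antiviral GTPase, differed by 0.70 and -1.56. In the added family of the major histocompatibility complex and antigen processing, on or beside chromosome 17 for its leading members, 7 of 23 genes rose and 1 fell (34.8% called, against 17.0% of all genes). Tap1, a subunit of the peptide transporter, read 7.36, 7.32 and 7.34 in B6xPWD, 6.53, 6.55 and 6.48 in B6 and 8.37 on average in PWD, and Tap2 differed by 1.15 (SE 0.119, adjusted p = 3.16e-06). In the other direction Tap1 differed by -0.96 and Tap2 by -0.80, so that the hybrids again lay between the strains.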

How the data were processed

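Per the labels, total RNA from spermatogenic cells of juvenile testes was labelled with biotin and hybridised to Affymetrix Mouse Gene 1.0 ST arrays. The authors' deposited table holds log2 values of 25690 probe sets on 23 arrays (range 1.17 to 13.96). That range was read as base 2. How the authors corrected background and normalized the arrays is not given in the sources used here. Per the series design text, the authors left out 1 PWDxPWK array. No scanner files were analysed here, so single probes could not be set against background, and precision is limited by how few arrays there are.

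The platform annotation gave 1 symbol to 20777 probe sets, several to 232 and none to 4681, and only the first were used. Of these 20696 matched the RefSeq gene table (GRCm38.p6) by Entrez ID, which gave chromosomes and spans. For 564 genes with more than 1 probe set the one with the highest mean was taken. The 25% of genes with the lowest mean (log2 below 5.125) were left out.

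A linear model of 7 genotype means was fitted to all 23 arrays with limma 3.58.1 in R 4.3.3 (16 residual degrees of freedom, moderated variances). The contrasts were B6xPWD minus B6 and its difference from PWDxB6 minus PWD, with Benjamini-Hochberg adjustment and a threshold of 0.05. PWDxB6 minus PWD, B6xPWD minus B6xBALB/C and PWD minus B6 came from the same fit. Tested on simulated data of 14745 genes for B6xPWD minus B6, the fit recovered 39% of the 100 genes shifted by 0.5 and 91% of those shifted by 1, with 6.47% false calls. The simulated noise was drawn independently for each gene and array. These rates therefore need not hold for the real arrays, where an array can deviate at many genes together. The 29 lists hold 663 genes (561 on the array, 510 tested). Members and lists were chosen with earlier results of these data known, and 11 families were grouped by name after values were seen, so no set test was run. The genes named include the 12 largest autosomal rises and falls and the 8 largest rises and 5 largest falls on the X. All of these were taken from genes past the test without overlap of arrays. Also named are all Y-linked genes, up to 4 members per list or family with the smallest p, and 5 positive and 5 negative direction differences. Further examples were picked with their values in view. RefSeq promoter windows (GRCm38.p6) existed for 11641 tested genes.

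Alternatives were no dim filter, 50% of genes left out, quantile normalization, autosomal median centring, averaged probe sets, trended and robust variances, a replicate block, a fit of only the groups compared, and each array left out in turn. Figures were drawn with Python and matplotlib.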

Additional observations from a re-analysis of the deposited data

Results flagged for a closer look

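The differences B6xPWD minus B6 and PWDxB6 minus PWD were unequal at 1328 genes by the limma test of their difference at an adjusted p under 0.05. Of these 1296 are autosomal and 2 Y-linked. On these chromosomes a difference between the strains and an effect of the direction of the cross cannot be told apart in this test. The direction difference equals B6xPWD minus PWDxB6 with PWD minus B6 added. Among the named genes the direction difference in log2 units was positive for Vnn1 (3.25), Lgals3bp (2.82), Kcnc2 (2.81), Scn3b (2.61) and Gask1a (2.51). It was negative for Trim12a (-4.36), 2610524H06Rik (-3.12), Olfml3 (-2.78), 2610206C17Rik (-2.62) and Slc16a3 (-2.47). For Trim12a the hybrid means were 7.53 in B6xPWD and 7.46 in PWDxB6, and PWD minus B6 was -4.43. For Vnn1 these values were 9.23, 8.92 and 2.93, for Kcnc2 7.26, 7.08 and 2.63, and for Scn3b 6.77, 6.18 and 2.02. On the X the rise was larger in B6xPWD for Magea5 (1.80), 3830403N18Rik (1.56), Magea6 (1.50) and Magea3 (1.13), and the direction difference was negative for Nudt10 (-1.07) and Slc38a5 (-0.71). On the Y the difference was 0.85 for Uba1y and 0.60 for Eif2s3y. With 3 arrays per group, single arrays were not tested as outliers.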

How the results depend on the processing

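The number of genes past the test for B6xPWD minus B6 was 2503 and became 1622 in a fit of only the 6 arrays compared, which has fewer residual degrees of freedom. With each array left out in turn it ran from 1211 to 2299. The X-linked count of 109 ran from 71 to 101, and the 1328 genes of the direction difference from 788 to 1544. Under the remaining settings these 3 counts stayed within 1.5 times, with 2164 without the dim filter and 3067 with a replicate block (124 on the X, 1682 for the direction difference). Same-numbered B6xPWD and B6 arrays correlated at -0.062, 0.02 and 0.185 in their deviations from the group means, and differently numbered ones at -0.39 to 0.449. These values show no pairing by number, but with 3 arrays per group they cannot exclude a shared batch or litter.

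Calls for B6xPWD minus B6 were followed in 157 named genes, 154 of them called, with the uncalled Y-linked Uty, Sry and Kdm5d. Named list members that did not pass, such as Prm2, Chek1 and Rhox8, were not followed, so 154 is not a rate of success. Of the 154 called, 112 kept the call under every alternative run, as did all 10 named for the direction difference. Among the genes followed the sign changed only for Sry, which was not called: the value of Sry B6xPWD minus B6, -0.07, ran from -0.185 to 0.030 when single arrays were left out (0.026 without B6 replicate 2). What limits these values is 3 pools per group, unknown signal over background, unknown normalization, and probes matched to the reference genome.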

Other observations

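Of 290 probe sets named for microRNA genes 113 were bright enough to be tested, and 15 fell and 1, Mir568, rose, with a median of -0.16. The 16 are 14.2% of those tested, against 17.0% of all genes. Mir143 and Mir145a, which lie next to each other and are known from smooth muscle, fell by 0.91 (SE 0.212, adjusted p = 0.00648 by limma) and 1.63. Mir143 read 5.71, 5.65 and 5.37 in B6xPWD and 6.3, 6.77 and 6.38 in B6, without overlap. Mir3068 fell by 0.96 and Mir670 by 0.92. These probe sets were dim, and with the dimmest 50% of genes left out 3 passed. Leaving out B6 replicate 2 gave 6 in place of 16, hybrid replicate 2 gave 7 and hybrid replicate 3 gave 10.

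Of 34 tested axoneme and cilia genes 4 rose and 1 fell, with a median of 0.08, a share of 14.7% against 17.0% of all genes. Those that rose were Rsph1, Cfap47, Efhc2 and Spag6, and Mns1 fell, while in PWDxB6 against PWD Mns1 was higher by 1.07 (adjusted p = 0.000398 by limma), so that its direction differed (adjusted p = 5.46e-05). The red blood cell markers Alas2 (-0.23, adjusted p = 0.206) and Slc4a1 (-0.13, adjusted p = 0.598) did not pass the test.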
